A study of Homo sapiens with 4 samples.

Results

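The genes described here are 10 long noncoding genes that carry small nucleolar RNAs (snoRNAs) inside them: SNHG1, SNHG5, SNHG6, SNHG7, SNHG8, SNHG12, SNHG15, SNHG16, GAS5, and ZFAS1. They were taken by name from 58243 genes, each name matched to its Ensembl gene identifier. No rule on their values was used, but earlier results of these data were known when they were chosen. RNA was measured in 293T cells, a human embryonic kidney cell line, that had received either a control RNA or a mimic of miR-1, miR-122, or miR-124. A mimic is a synthetic copy of a mature miRNA, so all 4 groups were transfected and none was left untreated. The labels give 48 h of transfection for all groups, while the study's methods give a shorter time. Each condition was sequenced once, so there was no spread between replicates to compare a difference with, and no test between conditions was possible.

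snoRNAs guide the chemical modification of ribosomal RNA and other RNAs. Those of the C/D box class guide methylation and those of the H/ACA box class guide pseudouridylation. Most human snoRNAs are cut out of the introns of a longer host transcript. When the host is a long noncoding gene, the spliced exons left behind have little protein-coding potential, and for several such hosts they are degraded during translation by nonsense-mediated decay (NMD). Many hosts begin with a C followed by a run of pyrimidines, the 5′ TOP motif, which they share with ribosomal protein mRNAs and through which translation follows growth signals.

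The miRNAs act through their seed, bases 2 to 8 of the mature sequence, and the mature sequences of miR-1 and miR-122 are shown for this reason, with the seed in capitals. They were taken from RefSeq (GRCh38.p14), which matched 2 of the 3 mimics, miR-124 not being among them. The exact sequences of the mimics used are not given in the sources used here.

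hsa-miR-1-3p: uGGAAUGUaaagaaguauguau
hsa-miR-122-5p: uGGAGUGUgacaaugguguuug

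Words complementary to these seeds were searched in the annotated transcripts of the 10 genes (GENCODE release 44), on the transcript strand only. The words were ACATTCC and CATTCCA against the miR-1 seed and ACACTCC and CACTCCA against the miR-122 seed. In each pair the first word pairs with bases 2 to 8, the second pairs with bases 2 to 7 and is followed by an A, and the 2 words overlap in 6 letters. The word that most members held was CACTCCA, found in at least 1 transcript of 6 members and in the canonical transcript of 5. Those 5 were SNHG1, SNHG7, SNHG8, SNHG12, and SNHG16. Among 12605 canonical transcripts of genes with at least 200 reads, 29.4% held CACTCCA, and 24.2% of those within the length range of the members. In SNHG1 it was in 78 of 80 annotated transcripts, and in SNHG16 in 17 of 18. These were the only members in which most transcripts held one of the words. For each, an occurrence from a transcript in which no splice divides the stretch is shown, with the word in capitals. They lie at chr11:62855077-62855098 on the minus strand in SNHG1 and at chr17:76557791-76557812 on the plus strand in SNHG16 (GRCh38). Whether the other transcripts hold the word at the same place was not tested. The word shown for SNHG1 overlaps SNORD27 (chr11:62855012-62855083), a snoRNA inside SNHG1, so the spliced host RNA may not hold it there.

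SNHG1: accttgtagataacCACTCCAt
SNHG16: ctggaagacatggcCACTCCAg

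The other miR-1 word, CATTCCA, was in at least 1 transcript of 4 members, SNHG1 (15 of 80), SNHG5 (3 of 89), SNHG8 (1 of 15), and SNHG12 (3 of 19), and in the canonical transcript of 2, SNHG8 and SNHG12. It was in 25.4% of the 12605 canonical transcripts, and in 20.2% of those within the length range of the members. The miR-1 word ACATTCC was in 2 of 14 transcripts of ZFAS1, 3 of 89 of SNHG5, and 1 of 18 of SNHG16. By canonical transcript it was in 1 member, ZFAS1, against 21.2% of canonical transcripts and 16.6% of those within the length range. The miR-122 word ACACTCC was in 4 of 10 transcripts of SNHG7, 3 of 89 of SNHG5, and 1 of 15 of SNHG8. The canonical transcript held it in 1 member, SNHG8, against 15.8% of canonical transcripts and 12.7% of those within the length range. A match is a string of letters and not a site shown to bind.

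The annotated 5′ ends were read because several of these genes are known 5′ TOP RNAs. For each gene the start shared by the largest number of annotated transcripts was taken, and the leading run of pyrimidines is in capitals.

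GAS5: CTTTTCgaggtaggagtcgactcct
ZFAS1: CTTTCgcgtctgcggtgcccggagt
SNHG12: CCTTTCTCCCCgccgcattcccggt
SNHG8: CTTTCacattcgggaagcgtcggga
SNHG7: CTCTgcgtgcgccggaggctgccgt
SNHG1: CTCatttttctactgctcgtggtaa
SNHG16: gttcttttcgaggtcggccgcgtgg

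These lie at chr1:173867965-173867989, chr20:49278642-49278666, chr1:28581849-28581873, chr4:118278758-118278782, chr9:136728160-136728184, chr11:62855861-62855885, and chr17:76557766-76557790 of GRCh38, in the order shown. A C followed by at least 4 pyrimidines opened 5 of the 10 genes, GAS5, ZFAS1, SNHG12, SNHG8, and SNHG6, against 3.69% of 12605 genes with at least 200 reads. SNHG7 has a shorter run of 4 pyrimidines and SNHG1 one of 3. SNHG5, SNHG15, and SNHG16 begin with a G at the start used here, and SNHG16 has a pyrimidine-rich stretch right after it. Annotated starts can differ from those used in 293T cells by a few bases.

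The values were FPKM, fragments per kilobase of gene scaled to the size of the library. The reads behind each value were recovered from the smallest steps between values, with the gene's end minus its start, introns included, as length where that gave whole reads (18302 of 32356 genes), and otherwise the smallest length that did. The libraries held 5887055 to 9452232 reads, the miR-1 library being the deepest. Marker genes of 293T cells (PAX2, EYA1, NEFL, NEFM, and VIM) all had reads in every library, with a summed FPKM of 86.9 to 101.03 and 4718 to 7881 summed reads. Nearly all of this FPKM came from VIM (58.0 to 68.3) and NEFL (27.7 to 33.6). PAX2 had 12 to 30 reads per library, EYA1 36 to 61, and NEFM 34 to 61, while GAP43, a neuron marker, had 59 to 81. Markers of muscle had 23 to 53 summed reads over 5 genes, those of liver 2 to 6 over 5 genes, those of blood 0 to 2 over 4 genes, and those of neurons 144 to 182 over 4 genes. Of these, 1 liver and 1 blood marker were at 0 in all libraries, and the part of such reads in the results was not tested. In RNA from a whole culture, fewer cells of a type and less RNA per cell cannot be told apart.

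All 10 genes were detected in all 4 libraries (FPKM above 0.004, the authors' threshold) and had 300 or more reads over the 4. Between them they took 1005 RPM (reads per 1000000 reads of the library) with the control RNA, 1135 under miR-1, 1024 under miR-122, and 1090 under miR-124. SNHG7, which carries 2 snoRNAs of the SNORA17 family, had the most reads in each library, and ZFAS1 and SNHG12 had the fewest. On a scale set by length, RPM per kilobase of annotated exon, SNHG7 was at 72.7 in the control RNA library, SNHG6 at 31.8, GAS5 at 30.9, and SNHG1 at 20.7. SNHG16 (16.9), SNHG15 (15.3), and SNHG5 (10.6) came next, and SNHG8 (3.45), SNHG12 (2.09), and ZFAS1 (1.27) had the lowest values. This order depends on the length used, and by FPKM 6 of the 10 genes changed rank. For SNHG6 and SNHG8 the smallest length that gave whole reads matched no pair of annotated transcript ends. Their reads may thus be too few by a whole factor, and their places in the order and parts of the summed RPM are not known.

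**Figure D1:**
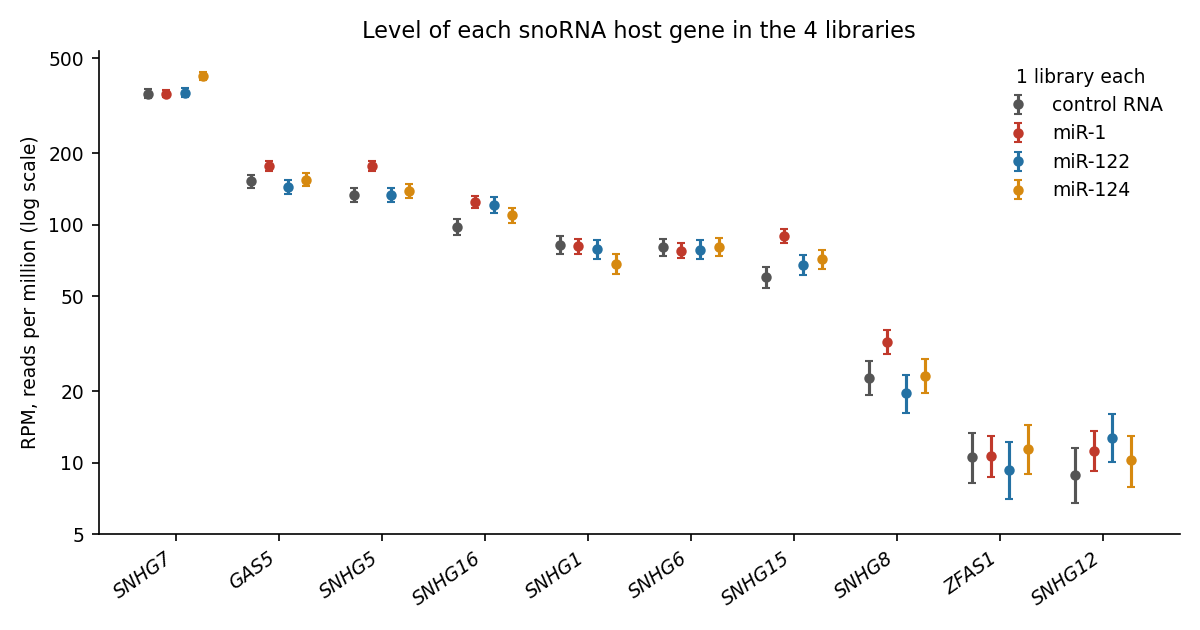
RPM (log axis) of each of the 10 host genes in the 4 libraries, 1 point for each library, with exact 95% Poisson intervals for counting error as bars. SNHG7 lies above 300 RPM in each library, ZFAS1 and SNHG12 near 10, and the miR-1 point of SNHG15, SNHG5, and SNHG8 lies above the other 3.

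The snoRNAs carried by these genes were not measured in a usable way. The number of snoRNA genes within each host was 11 in GAS5, 9 in SNHG1, 4 in SNHG12, 3 each in SNHG16 and ZFAS1, 2 each in SNHG5 and SNHG7, and 1 each in SNHG6, SNHG8, and SNHG15 (RefSeq, GRCh38.p14). The data had 26 snoRNA entries inside the 10 hosts, of which 23 were at 0 in all libraries, and no entry had more than 11 reads over the 4 libraries.

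The first comparison was miR-1 against the control RNA. miR-1 is the miRNA of skeletal and heart muscle and is not normally made in 293T cells. The median log2 ratio of the 10 genes was 0.27, against -0.051 for all 12633 genes with at least 200 reads and -0.0013 for 1062 long noncoding genes. SNHG5, SNHG8, SNHG15, SNHG16, and GAS5 were higher with miR-1 by more than counting error, and none of the 10 was lower. The median was 0.12 against the mean of the other mimic libraries. Counting error was measured by the exact 95% interval of each ratio, which compares the 2 libraries and not the conditions. By the same interval 15.4% of all genes were higher and 24.4% lower.

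SNHG15 (ENSG00000232956, chr7:44983019-44986961, minus strand), host of SNORA9 and a short-lived transcript, had FPKM values of 15.3 with the control RNA, 22.7 under miR-1, 17.3 under miR-122, and 18.2 under miR-124. The miR-1 library was the highest of the 4 and differed from the next, miR-124, by more than counting error (1.2498, 1.115 to 1.403). The ratio to the control RNA was 1.49 (1.32 to 1.68), the highest of the 10 with miR-1.

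SNHG8 (ENSG00000269893, chr4:118278703-118285316, plus strand), host of SNORA24, was at 20.5, 29.0, 17.5, and 20.8 FPKM in the same order of libraries, which is kept for all series of 4 values that follow. It rests on 115 to 305 reads per library, fewer than most of the others. The ratio to the control RNA was 1.42 (1.16 to 1.73) with miR-1, and the other 3 libraries did not differ from one another beyond counting error.

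SNHG5 (ENSG00000203875, chr6:85650491-85678932, minus strand) carries SNORD50A and SNORD50B, C/D box snoRNAs that guide methylation of the large ribosomal RNA. It was at 7.52 FPKM with the control RNA, 9.89 under miR-1, 7.52 under miR-122, and 7.82 under miR-124. Only the miR-1 library stood apart, at 1.31 times the control (1.21 to 1.43).

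SNHG16 (ENSG00000163597, chr17:76557727-76670985, plus strand) carries SNORD1A, SNORD1B, and SNORD1C. Its FPKM values were 12.9, 16.4, 16.0, and 14.5. It was the one gene of the 10 whose interval lay above 1 with each of the 3 mimics. By value alone, SNHG12 and SNHG15 were also higher than the control RNA library with each mimic. The ratio of SNHG16 was 1.27 (1.15 to 1.402) under miR-1, 1.24 (1.11 to 1.38) under miR-122, and 1.12 (1.01 to 1.251) under miR-124. Neighbours in the order of the 3 mimic libraries did not differ beyond counting error, while miR-1 and miR-124 did (1.13, 1.03 to 1.245). It is also a gene whose transcripts nearly all hold the miR-122 word shown above, and its miR-122 value was not below that of the control.

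GAS5 (ENSG00000234741, chr1:173858559-173868882, minus strand), growth arrest-specific 5, accumulates in cells that stop growing and carries the most snoRNAs of the 10. It was at 30.5, 35.5, 28.8, and 31.1 FPKM. The miR-1 library was highest, at 1.16 times the control (1.07 to 1.26), and the other 3 did not differ from one another beyond counting error.

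The other 5 genes did not differ from the control RNA library beyond counting error with miR-1. SNHG12 had a ratio of 1.26 with an interval from 0.907 to 1.76, on 59 reads in the control and 106 with miR-1. ZFAS1 was at 1.01 (0.738 to 1.39), SNHG7 at 0.999 (0.947 to 1.05), SNHG1 at 0.984 (0.881 to 1.10), and SNHG6 at 0.968 (0.865 to 1.08).

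No member reached a 1.5-fold difference in either direction with miR-1, against 0.902% of all genes at least 1.5-fold higher and 4.88% at least 1.5-fold lower. SNHG15 passed it after centring on the median of all genes (1.54), and SNHG8 passed it with the trend described further on subtracted (1.54) and against the other mimic libraries (1.51), where 1.38%, 1.09%, and 0.435% of all genes passed it.

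**Figure D2:**
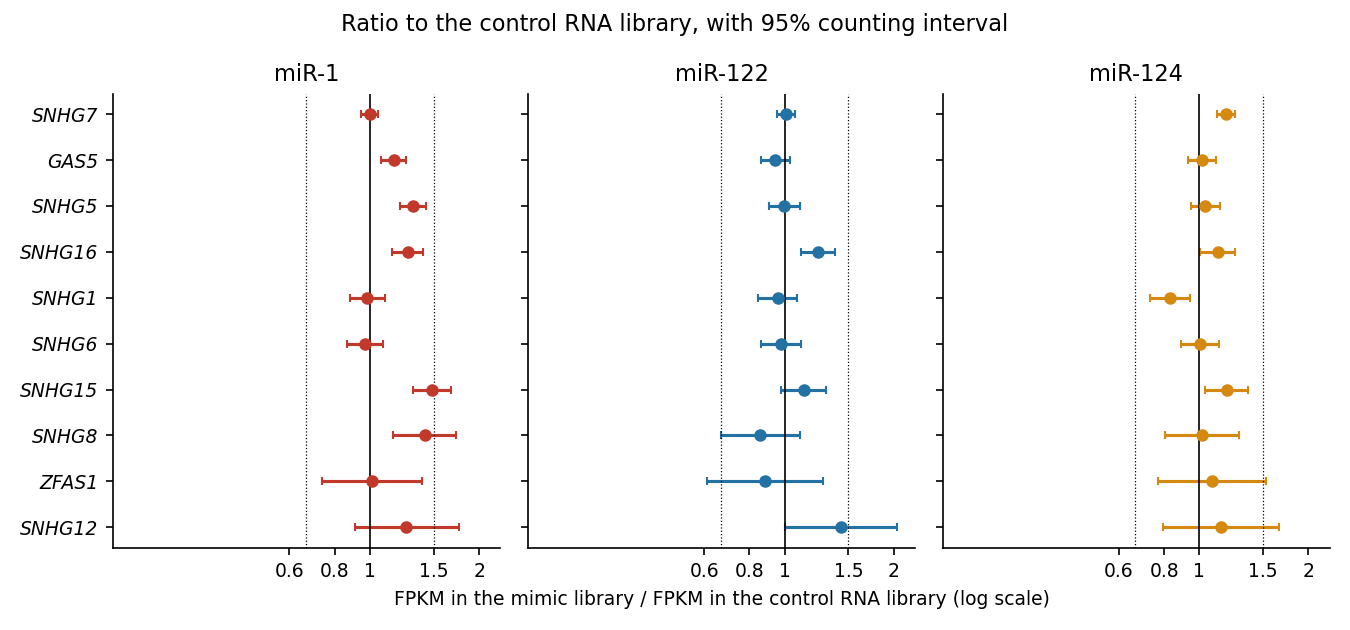
Ratio of FPKM in each mimic library to the control RNA library (log axis) for the 10 genes, with exact 95% counting intervals as bars, a solid line at 1 and dotted lines at 1.5-fold in either direction. With miR-1 the intervals of 5 genes lie above 1, with miR-122 those of 2, and with miR-124 those of 3, while SNHG1 lies below 1 with miR-124.

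The second comparison was miR-122, the miRNA of liver cells, against the control RNA. The members' median log2 ratio was -0.017 and that of all 12634 genes was -0.021. SNHG12 and SNHG16 were above 1 by their intervals and no member was below, against 13.1% of all genes above and 16.2% below. SNHG12 (ENSG00000197989, chr1:28578538-28583132, minus strand), which carries SNORA16A, SNORA44, SNORA61, and SNORD99, was at 2.004 FPKM with the control RNA, 2.52 under miR-1, 2.87 under miR-122, and 2.30 under miR-124. Its ratio of 1.43 (1.003 to 2.05) rests on 59 and 75 reads. The call was lost with the trend described further on subtracted (1.42, 0.997 to 2.03) and against the other mimic libraries (1.19, 0.894 to 1.57), and neighbouring libraries in its order did not differ beyond counting error. None of the 10 was 1.5-fold higher or lower, where 1.31% and 2.3% of all genes were.

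Of the members whose transcripts hold the miR-122 word in most cases, SNHG1 had a ratio of 0.956 (0.843 to 1.08) with miR-122 and SNHG16 one of 1.24. SNHG8 was the lowest of the 10, at 0.857 (0.666 to 1.10) on 115 reads, with ZFAS1 at 0.884 (0.610 to 1.28) on 55. The canonical transcript of SNHG8 holds both miR-122 words, and 1 of its 15 annotated transcripts holds each. Those of SNHG7 and SNHG12 hold CACTCCA, at ratios of 1.01 and 1.43. The part of these words in the ratios was not tested. SNHG5 (1.00, 0.907 to 1.10), SNHG7 (1.01, 0.9503 to 1.07), SNHG6 (0.977, 0.861 to 1.11), and GAS5 (0.943, 0.860 to 1.03) lay close to the control. SNHG15 was at 1.13 (0.980 to 1.30).

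The third comparison was miR-124, enriched in neurons, against the control RNA. The median log2 ratio of the members was 0.086, against -0.047 for all 12633 genes. SNHG7, SNHG15, and SNHG16 were above 1 by their intervals and SNHG1 was below, beside 16.2% of all genes above and 21.5% below. SNHG15 had a ratio of 1.19 (1.04 to 1.36). No member passed 1.5-fold in either direction, where 1.85% of all genes were higher and 3% lower.

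SNHG7 (ENSG00000233016, chr9:136721366-136728184, minus strand) was at 52.2 FPKM with the control RNA, 52.1 under miR-1, 52.6 under miR-122, and 61.8 under miR-124. The first 3 differed from one another by less than counting error, and the miR-124 library was higher than the control by a ratio of 1.18 (1.12 to 1.252). With 2112 to 3359 reads per library it was the best measured of the 10.

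SNHG1 (ENSG00000255717, chr11:62851978-62855953, minus strand) carries SNORD22 and the group SNORD25 to SNORD31, and SNORD22 is needed to process the RNA of the small ribosomal subunit. Its FPKM values were 21.0, 20.7, 20.1, and 17.4. The miR-124 library was the lowest and differed from the next, miR-122, by more than counting error (1.15, 1.01 to 1.32). The ratio to the control RNA was 0.829 (0.730 to 0.942), the only one of the 30 ratios below 1 by its interval.

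SNHG6 (ENSG00000245910), host of SNORD87, was at 17.04, 16.5, 16.6, and 17.1 FPKM, and its highest and lowest libraries did not differ beyond counting error (1.04, 0.926 to 1.16). ZFAS1 (ENSG00000177410, chr20:49278178-49299600, plus strand), which carries SNORD12, SNORD12B, and SNORD12C and lies antisense to the 5′ end of ZNFX1, was at 0.602, 0.609, 0.532, and 0.652 FPKM on 55 to 101 reads per library. Its highest and lowest libraries did not differ beyond counting error either (1.23, 0.853 to 1.77).

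**Figure D3:**
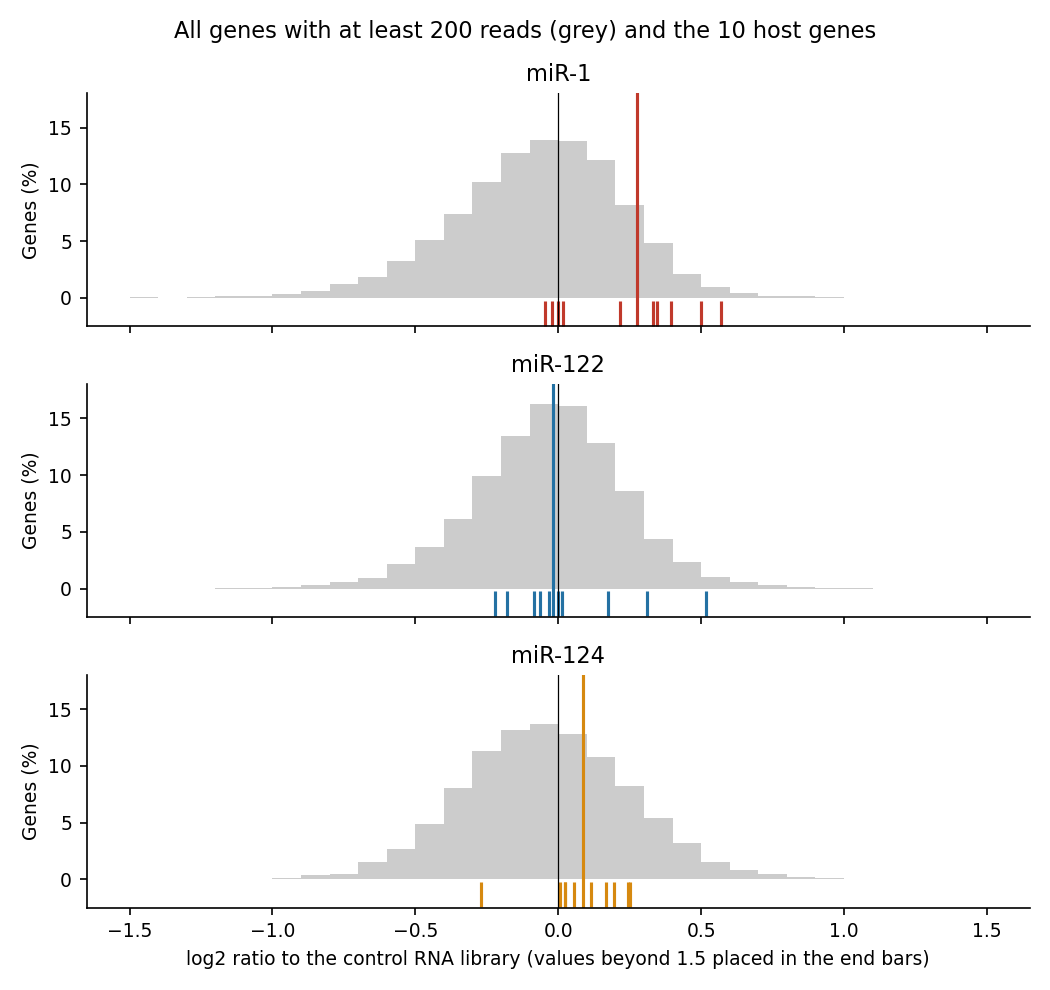
Share of genes with at least 200 reads (grey bars, percent) by log2 ratio to the control RNA library, with the 10 host genes as coloured ticks under the axis and their median as a coloured line. The members' median lies at 0.27 under miR-1, -0.017 under miR-122, and 0.086 under miR-124, and their ticks run from -0.27 (SNHG1 under miR-124) to 0.57 (SNHG15 under miR-1).

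The ratios of all genes followed the GC content of their exons, most with miR-124. Pearson's r of the log2 ratio with exonic GC content, taken across genes that are not independent of each other, was 0.219 under miR-1, 0.335 under miR-122, and 0.640 under miR-124. In the miR-124 library, genes of 38 to 42% GC had a median log2 ratio of -0.24 and those of 58 to 62% one of 0.20. Exonic GC content of the members ran from 38.8% in SNHG6 to 59.3% in SNHG7. A cubic trend with exonic GC content, exonic length, and reads took up 15.2%, 14.4%, and 42.7% of the variance between genes under the 3 mimics in turn.

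With that trend subtracted, SNHG7 with miR-124 was at 0.983 (0.930 to 1.04) and SNHG1 at 0.903 (0.795 to 1.03), so that neither differed beyond counting error. SNHG15 (1.16, 1.02 to 1.33) and SNHG16 (1.19, 1.07 to 1.33) stayed above 1, GAS5 (1.10, 1.01 to 1.204) and SNHG5 (1.17, 1.07 to 1.29) were then above it too, and the median was 0.20. With miR-1 the same 5 genes were above 1 after the subtraction, at ratios of 1.13 to 1.54, and SNHG7 was below, at 0.894 (0.848 to 0.943). After the subtraction 12.2% of all genes were above and 22.3% below with miR-1, and 5.87% and 15.1% with miR-124. Whether GC content itself acted on these libraries was not tested.

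All 3 ratios share the control RNA library, so the mimic libraries were also compared with one another. Against the mean of the other 2 mimic libraries, miR-1 was higher for SNHG8 (1.51, 1.28 to 1.79), SNHG5 (1.29, 1.204 to 1.38), SNHG15 (1.28, 1.17 to 1.41), GAS5 (1.19, 1.11 to 1.27), and SNHG1 (1.10, 1.00025 to 1.22). SNHG16 was not (1.08, 0.996 to 1.16), and SNHG7 was lower (0.911, 0.872 to 0.952). By the same interval 16.5% of all genes were above and 21.6% below. SNHG5, SNHG8, SNHG15, and GAS5 were thus higher in the miR-1 library than in the control and than in each other mimic library, with ratios from 1.14 for GAS5 against miR-124 to 1.65 for SNHG8 against miR-122. SNHG7 was higher in the miR-124 library than in each of the others, by 1.18 against the mean of the other mimics (1.13 to 1.24).

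Summed over the 10 genes, a measure added after seeing the data, the RPM was 1.13 times the control under miR-1 (1.10 to 1.17), 1.02 times under miR-122 (0.984 to 1.06), and 1.09 times under miR-124 (1.05 to 1.12). The miR-124 sum turned on SNHG7. Without SNHG7 it was 1.03 (0.988 to 1.08), and the miR-1 sum was 1.201 (1.16 to 1.248). Leaving out any other single gene kept the miR-1 sum between 1.10 and 1.14 and the miR-122 sum between 0.995 and 1.03. The sums add recovered reads, which for SNHG6 and SNHG8 may be too few by a whole factor. The weight of these genes in the sums is therefore not known.

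Several members overlap a gene on the opposite strand, and the strand used in counting is not given in the sources used here, so reads of such pairs cannot be told apart. DIPK1B, a protein-coding gene, overlaps SNHG7 over 3377 bases, and its ratios were 0.852 (0.797 to 0.910) under miR-1, 1.01 (0.941 to 1.09) under miR-122, and 1.19 (1.12 to 1.28) under miR-124. SNHG7 and DIPK1B were both higher with miR-124 and differed in call with miR-1. A gene with no symbol, ENSG00000284526, overlaps SNHG16, over 1639 bases if the first of 3 stretches that fit the length of SNHG16 is taken. The ratios of ENSG00000284526 were 1.54, 1.402, and 1.44, each above 1 by its interval, as SNHG16 was. PRSS12, opposite SNHG8, was lower with miR-1 (0.713, 0.576 to 0.883), where SNHG8 was higher. ZNFX1, opposite ZFAS1 over 249 bases, was at 0.929, 0.929, and 0.874. GAS5 overlaps ZBTB37 over 801 bases and its antisense gene GAS5-AS1 over 42, and GAS5-AS1 was at 0.715 with miR-124 (0.557 to 0.914), where GAS5 was at 1.02. The part of these overlaps in the members' values was not tested.

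The rest of the SNHG name series serves as the nearest set of like genes. Of 19 such genes, 2 were at 0 in all libraries and 10 had at least 200 reads. With miR-1, 5 of these 10 were above 1 by their intervals and none below, with a median log2 ratio of 0.33. They were SNHG10 (1.57, 1.17 to 2.14), SNHG30 (1.38, 1.13 to 1.69), SNHG19 (1.32, 1.06 to 1.65), SNHG17 (1.16, 1.02 to 1.31), and SNHG32 (1.16, 1.06 to 1.26). The lowest with miR-1 was SNHG29, at 1.05 (0.989 to 1.12) on 2522 reads. With miR-122 none of the 10 was called, the median was 0.045, and the ratios ran from 0.933 for SNHG3 to 1.35 for SNHG14. With miR-124, 1 was above 1, SNHG32 at 1.17 (1.07 to 1.29), the lowest was SNHG3 at 0.822 (0.669 to 1.01), and the median was -0.088.

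By annotation, 15 further long noncoding genes with a snoRNA gene on their strand had at least 200 reads, a set that shares genes with the SNHG series. With miR-1, 5 of them were above 1 and none below, with a median log2 ratio of 0.21. With miR-122 none was called and the median was 0.051, and with miR-124, 1 was above and the median was 0.016. Most snoRNAs sit in hosts that encode a protein, many of them ribosomal proteins or translation factors. Of 208 protein-coding hosts, 60 were above and 55 below under miR-1, 24 and 55 under miR-122, and 21 and 73 under miR-124. These are 28.8%, 11.5%, and 10.1% above and 26.4%, 26.4%, and 35.1% below. The medians of the coding hosts were -0.022, -0.073, and -0.10. No test was made between the noncoding and the coding hosts.

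The proteins that bind snoRNAs into particles were read as a first list. The core of the C/D box particle is FBL, the methyltransferase, with NOP56, NOP58, and SNU13, and the core of the H/ACA box particle is DKC1, the pseudouridine synthase, with NHP2, NOP10, and GAR1. All 8 genes were above 1 by their intervals with miR-1, from NOP56 at 1.08 (1.01 to 1.15) to NHP2 at 1.36 (1.28 to 1.46), with a median log2 ratio of 0.29. With miR-122 only FBL was above (1.07, 1.004 to 1.13), and with miR-124 FBL (1.14, 1.08 to 1.21) and NHP2 (1.12, 1.04 to 1.21) were. The trend with GC content, length, and reads lowered the miR-1 median of these 8 genes to 0.17.

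The 10 genes of particle assembly lay on both sides of 1. With miR-1, 3 were above and 1 below, with a median of -0.0027, and the extremes were NOLC1 (1.604, 1.48 to 1.74), a nucleolar phosphoprotein that accompanies snoRNA particles, and NUFIP1 (0.643, 0.492 to 0.839). NOLC1 was also the highest of the 10 with miR-122 (1.28, 1.17 to 1.403). With miR-122, 3 were above and none below, and with miR-124, 2 and none.

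Because spliced host RNAs are substrates of NMD, its factors and some of its known mRNA substrates were read beside them. By their intervals, 24.4%, 16.2%, and 21.5% of all genes were below 1 under the 3 mimics in turn, and 15.4%, 13.1%, and 16.2% above. Of 16 NMD factors, 7 were below 1 with each mimic, and 4, 2, and 1 were above in the same order. SMG1, the kinase that phosphorylates UPF1, was the lowest with all 3 mimics, at 0.633 (0.583 to 0.687), 0.564 (0.511 to 0.622), and 0.638 (0.582 to 0.698). Its control value of 1231 reads is shared by the 3 ratios, and near-identical copies of SMG1 elsewhere on its chromosome make its counts uncertain. MAGOH, of the exon junction complex, was the highest with each mimic, at 1.33, 1.21, and 1.17.

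Of 7 mRNAs known to be sensitive to NMD, 2 were above and 1 below under miR-1, 3 and none under miR-122, and 2 and none under miR-124. Their median log2 ratios were 0.042, 0.16, and 0.16. UPP1 (1.34, 1.13 to 1.58) and DDIT3 (1.33, 1.15 to 1.53), a transcription factor of the stress response, were above with miR-1, and ATF4 was below (0.911, 0.869 to 0.956).

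The 5′ TOP mRNAs that encode no structural ribosomal protein were read as well, of which 15 of 16 had at least 200 reads and EEF1G was at 0. The counting program and annotation are not given, so this 0 cannot be read as lack of the RNA. With miR-1, 10 were above and 3 below, with a median log2 ratio of 0.10, and they ran from PABPC1 (0.812, 0.772 to 0.855) to FAU (1.22, 1.13 to 1.32). With miR-122, 5 were above and 1 below, and EIF3F was highest at 1.32 (1.21 to 1.45). With miR-124, 6 were above and 5 below, and EEF2 was highest at 1.21 (1.19 to 1.24). Regulators of TOP mRNA translation, such as LARP1 and MTOR, were above in 1 and below in 5 of 8 with miR-1, and the lowest was RPS6KB1 at 0.769 (0.677 to 0.875). Of the same 8, 1 was above and 2 below with miR-122, and 2 were above and 1 below with miR-124, with EIF4EBP1 the highest under each mimic, at 1.16, 1.13, and 1.17.

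**Figure D4:**
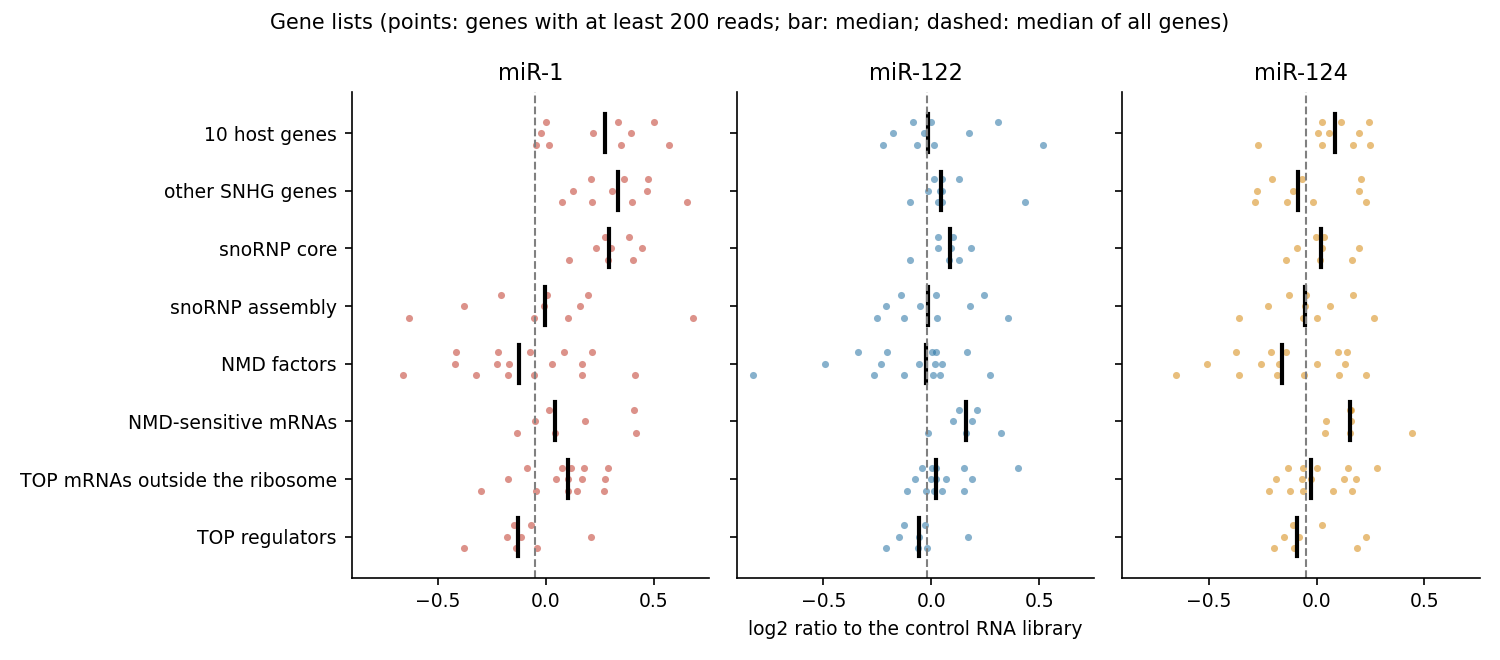
log2 ratio to the control RNA library of the genes in 8 lists, with 1 point for each gene with at least 200 reads, a black bar at the list's median and a dashed line at the median of all genes. With miR-1 the bars of the 10 host genes (0.27), the other SNHG genes (0.33), and the snoRNP core (0.29) lie to the right of the dashed line, and that of the NMD factors (-0.12) to its left.

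Among all other genes with at least 200 reads, the 5 whose 3 log2 ratios lay nearest to the members' medians were RRP7A, RPL24, LRRC75A, CCT7, and PWP2, within a Euclidean distance of 0.034. RRP7A and PWP2 encode ribosome assembly factors, RPL24 a protein of the large ribosomal subunit, and CCT7 a subunit of the chaperonin that folds actin and tubulin. LRRC75A lies antisense to SNHG29. RPL24 had ratios of 1.1996, 1.00, and 1.07 and RRP7A of 1.21, 0.996, and 1.07, with miR-1, miR-122, and miR-124. The likeness is over 3 ratios that share 1 control library.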

How the data were processed

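Libraries were made from total RNA with an mRNA-seq kit and read from 1 end. Per the labels and the study's methods, the authors used CASAVA 1.8 for base calls and HISAT2 2.0.0 for alignment to GRCh38 after trimming and masking, and deposited FPKM values, 1 for each gene. The counting program, annotation, and strand setting are not given in the sources used here.

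The divisor of each library was found from the value of 1 read, and reads were recovered for 32356 of 32358 genes above 0, with the end minus the start of the gene as length (GENCODE release 44) for 18302 genes and otherwise the smallest length at which the reads of all 4 libraries were whole (within 0.001 of a read, or up to 0.05 where rounding to 9 decimals required it). Reads of the latter genes can be too few by a whole factor, and their intervals then too wide. SNHG1, SNHG6, SNHG8, SNHG12, and SNHG16 had no stretch placed in this way.

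The ratio was FPKM in the mimic library over FPKM in the control RNA library, without a pseudocount, for genes above 0.004 in both and with at least 200 reads over the 4 libraries. Intervals were exact Clopper-Pearson intervals at 95% from recovered reads and cover counting error only, since reads without molecular identifiers are not independent molecules. On simulated libraries (miR-1 against control RNA, 12659 genes) all 4 divisors came back and 98.0% of genes had their exact reads. There, 95.7% of intervals held the true ratio, and 4.36% of unchanged genes were called. The simulated reads were Poisson draws with no variation between cultures, which is what the intervals assume. These shares therefore check the steps and not the error of the real libraries.

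The genes named were the 10 members, their overlapping genes, the lowest and highest of each list for each mimic and the members of lists quoted in full, and the 5 genes nearest to the members' medians. SNHG30, SNHG19, SNHG17, DDIT3, and NHP2 for miR-124 were named after their values were seen. The members and lists were chosen with earlier results of these data known. One marker gene of the 293T list is not reported here. Alternatives were another reference, centring, the trend adjustment, pseudocounts, filters, and another fold. Intervals came from scipy 1.17.1, tables from pandas 2.3.3 with numpy 2.4.6, and figures from matplotlib 3.10.9, under Python 3.11.15.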

Additional observations from a re-analysis of the deposited data

How the results depend on the processing

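No paired analysis was possible because only 1 library was made for each group, and for the same reason no replicate could be left out. Centring on the median of all genes changed no interval call of a member, but put 1 member, SNHG15, past 1.5-fold with miR-1, and pseudocounts of 1 and 0.1 turned the direction of no member called by its interval. With the other 2 mimic libraries, averaged, in place of the control, the members above 1 fell to 0 under miR-122 and 1 under miR-124, where 13.7% and 16.0% of all genes were above. Those below became 1 under miR-1, 5 under miR-122, and 3 under miR-124, where 21.6%, 10.7%, and 15.2% of all genes were below. The miR-1 median became 0.12 and the miR-124 median -0.15, and 1 member, SNHG8, passed 1.5-fold with miR-1. Of the members called by their interval against either reference, the log2 ratio changed sign for SNHG1 with miR-1 (0.14), SNHG7 (-0.11) and SNHG15 (-0.25) with miR-122, and SNHG5 (-0.15), SNHG15 (-0.14), and SNHG16 (-0.16) with miR-124. With the trend of GC content, length, and reads subtracted, 1 member was below 1 and 1, SNHG8, past 1.5-fold with miR-1, 1 was above and 1 below with miR-122 (9.62% and 13.3% of all genes), and 0 were below with miR-124. Of the members called with or without the trend, SNHG7 changed sign with miR-122 (-0.12) and miR-124 (-0.025). Members without a call in either setting also changed sign under these alternatives and under centring. The 1.5-fold counts under another reference, centring, and the trend were added after seeing the data. The cause was not tested. With a limit 25% above the control in place of 1.5-fold, 5 members were higher under miR-1, 1 under miR-122, and 0 under miR-124. Of all genes, 7.37%, 7.88%, and 10.3% passed that limit in turn.

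The share of all genes called depended on the filter. With no filter beyond the authors' threshold, the genes at least 1.5-fold higher were 8.37%, 10.1%, and 10.7% under the 3 mimics in turn, those at least 1.5-fold lower 13.6%, 11.5%, and 11.7%, those above by the interval 9.61%, 8.70%, and 10.4%, and those below 16.0%, 10.6%, and 13.7%. With a mean FPKM of at least 1, those 1.5-fold higher were 4.28%, 5.21%, and 5.77%, and those lower 4.84% with miR-122 and 4.81% with miR-124. Depth limits SNHG12 and ZFAS1 most, at 55 to 106 reads per library.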
